A study of Homo sapiens with 6 samples.

Results

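ANKRD1 and AMOTL1, genes linked to the Hippo pathway and its effector YAP, were examined in H1975 lung adenocarcinoma cells with and without HER2 S310F. They are 2 of the 107 genes in the deposited table. Both were chosen by name, but every gene in that table had been selected on the difference between the same samples. The differences are therefore described as values, and no p-value is given for them. Where genes are called higher or lower below, the call places them against fixed limits and is no independent test. H1975 is an established human lung adenocarcinoma line with mutated EGFR, and all cells were grown in the same medium. EV cells carried the empty vector, and S310F cells stably expressed a mutant of HER2, the receptor encoded by ERBB2, in which phenylalanine takes the place of a serine in the extracellular domain. Per the study's methods, the HER2 construct was full-length and HA-tagged, and cells were infected with lentivirus and selected with puromycin. Whether each line was a clone or a pool is not given in the sources used here. RNA was sequenced from 3 EV and 3 S310F samples, and wild-type HER2 was not among these groups, so the mutation and the amount of HER2 cannot be told apart.

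The Hippo pathway is a kinase cascade in which the MST and LATS kinases phosphorylate the coactivators YAP and TAZ and keep them out of the nucleus. When the cascade is low, YAP and TAZ enter the nucleus and bind TEAD factors, which recognize short DNA motifs at target genes. ANKRD1 encodes a cardiac ankyrin repeat protein that acts in the nucleus and in muscle sarcomeres, and its RNA is widely used as a readout of YAP and TAZ. AMOTL1 encodes angiomotin like 1, a protein of tight junctions and the actin cytoskeleton whose family binds YAP and LATS kinases and can hold YAP in the cytoplasm. The comparison between S310F and EV cells asks how the RNA of such a target and such a regulator stood in cells with the HER2 mutant.

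In S310F cells ANKRD1 was lower, at 0.490 times the EV mean, and AMOTL1 was higher, at 2.91 times the EV mean. The genes thus went in opposite directions. They also differed in abundance and precision, since ANKRD1 was among the most abundant listed genes and AMOTL1 among the scarcer ones in EV cells. No other gene of the 55 listed here for the Hippo pathway or of the 77 listed as YAP/TAZ targets was in the table.

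ANKRD1 (ENSG00000148677) lies on the minus strand of chromosome 10, from 90912096 to 90921276 on GRCh38. GENCODE release 29 gives it 1 transcript of 9 exons, with 957 coding bases for 319 residues. AMOTL1 (ENSG00000166025) lies on the plus strand of chromosome 11, from 94706431 to 94876753. It has 5 annotated transcripts, 3 of them protein-coding, and the longest coding sequence has 2868 bases for 956 residues in 13 exons. Its transcripts begin at far separated sites. A short coding transcript starts at 94706431, while the long ones, of 906 and 956 residues, start at 94768342 and 94768371. The short one has 436 annotated coding bases, which hold 145 whole codons and a remainder, so its coding sequence is incomplete as annotated. The table holds 1 value per gene, so use of these starts could not be compared. No stretch of 100 bases in the ANKRD1 transcript matched a transcript of another gene at 95% identity (0% of its length), and other genes overlap 0% of its exons. For AMOTL1, AP002383.2 on the opposite strand overlaps 4.94% of the exons. Whether reads were counted by strand is not given in the sources used here, so reads of AP002383.2 cannot be told apart from reads of AMOTL1 in that stretch.

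The DNA before the start sites is shown because TEAD factors, through which YAP acts, are known by their motif. The letters are those of the RefSeq promoter table on GRCh38.p14. RefSeq starts ANKRD1 at 90921087, inside the first exon that GENCODE gives it, so a stretch upstream of both starts is shown whole, and sites that lie in that exon or, like the AP-1 motif, reach its first base are shown as short windows. Written in the direction of the gene, capitals mark the TEAD core GGAATG in the stretch of 61 bases at chr10:90921277-90921337 and in the window at chr10:90921198-90921227. They mark TGANTCA, a loose form of the AP-1 motif with any middle base, here T, in the window at chr10:90921264-90921293. TATATAA, a form of the TATA box, is marked in the window at chr10:90921101-90921130.
ANKRD1 upstream stretch: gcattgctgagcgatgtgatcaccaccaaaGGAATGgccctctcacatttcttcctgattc
ANKRD1 second TEAD core: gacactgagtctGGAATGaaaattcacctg
ANKRD1 AP-1 motif: acatttcttccTGATTCAcatattcagcag
ANKRD1 TATA form: ccggccccagcTATATAAgctgaccggtgt
In AMOTL1 the capitals mark CG dinucleotides in the 200 bases at chr11:94768142-94768341, which lie before the first exon of the 906-residue transcript and in an intron of the short one.
AMOTL1 upstream stretch: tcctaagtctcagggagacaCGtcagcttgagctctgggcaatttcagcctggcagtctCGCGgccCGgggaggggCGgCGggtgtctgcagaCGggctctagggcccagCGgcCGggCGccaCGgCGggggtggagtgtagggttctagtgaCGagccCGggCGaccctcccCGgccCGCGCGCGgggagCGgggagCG

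The 2 stretches differed in kind. In the 250 bases before the RefSeq start, searched on both strands, ANKRD1 held GGAATG at 2 places, 220 to 215 and 128 to 123 bases upstream. At least 1 GGAATG was present in 11.9% of 35116 such windows, and 2 or more in 0.940%. ANKRD1 also held TGANTCA at 195 to 189 bases upstream, a motif in 6.57% of windows, and TATATAA at 32 to 26 bases upstream, a motif in 2.42% of windows. No site overlapped another. In the same 250 bases AMOTL1 held none of these motifs, but 28 CG dinucleotides and a GC content of 73.2%, against 4 and 53.2% in ANKRD1 and medians of 11 and 58% over all windows. Neither gene held TATAAA (10.7% of windows), a CArG box (1.16%) or the NF-κB motif (5.21%). A match is a description of letters and not a bound site, and binding was not measured in these samples.

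Values are given in units of reads over the size factor of each sample, and 100% of them came out as whole reads within 0.02 reads. A read was worth 0.919 to 1.09 units, so values and read numbers nearly coincide. The total depth of the libraries is unknown, because the table holds selected genes only. ERBB2, the introduced gene, was 821 ± 53.0 in EV and 15064 ± 1306 in S310F cells (SD, n = 3 each), which bears out the labels. Of 28 markers fixed for lung epithelium, fibroblasts, endothelium, immune cells and muscle, 0 were in the table, so cell identity could not be checked. S310F replicate 3 stood apart, with 14 listed genes at least 1 log2 unit above and 6 at least 1 unit below the mean of the other S310F samples. The chi-square per degree of freedom was 17.1 and 19.2 between it and the other S310F replicates, against 2.75 to 5.79 in the remaining replicate pairs. The study's methods speak of independent experiments for its data in general, but neither they nor the labels say how the sequenced replicates were obtained, so the spread between them may be technical.

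ANKRD1 stood at 1794, 1970 and 1859 in the EV samples and at 924, 1005 and 826 in the S310F samples, each in the order of replicates 1 to 3. All EV values lay above all S310F values, and the lowest EV value was 1.79 times the highest S310F value. Means were 1875 ± 89.0 in EV and 918 ± 89.5 in S310F cells (SD, n = 3 each), so the standard deviations were near equal while the level differed by 2.04 times. On the log2(value + 1) scale the difference was -1.03, with a standard error of 0.204 when the spread is shared over all listed genes by limma and 0.0907 from ANKRD1 alone. In a bulk sample, a lower level per cell and fewer cells with the RNA cannot be told apart.

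In the same order, AMOTL1 stood at 37.3, 11.6 and 33.9 in the EV samples and at 90.1, 92.9 and 58.0 in the S310F samples. The groups did not overlap, but the highest EV value and the lowest S310F value were only 1.56 times apart. Means were 27.6 ± 13.97 in EV and 80.3 ± 19.4 in S310F cells (SD, n = 3 each). The difference was 1.64 on the log2(value + 1) scale, with a standard error of 0.426 from limma and 0.559 from AMOTL1 alone. EV replicate 2 rested on 12 reads, against 37 and 33 in the other EV samples and 98, 95 and 53 in the S310F samples. Its exact 95% Poisson interval of 5.97 to 20.2, which covers counting error only, lay below those of EV replicate 1 (26.2 to 51.4) and EV replicate 3 (23.3 to 47.6). The interval of S310F replicate 3, from 43.4 to 75.9, overlapped the upper parts of both.

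**Figure D1:**
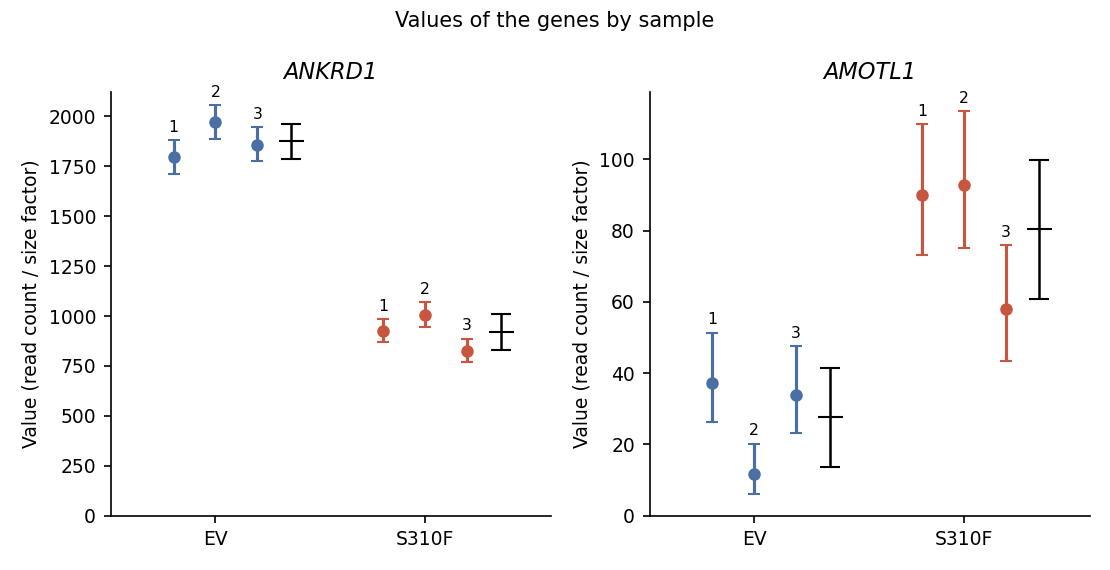
The vertical axes give the value of ANKRD1 (left) and AMOTL1 (right) as read count over size factor, with 1 point per sample, its replicate number and its exact 95% Poisson interval, and black bars for mean ± SD (n = 3). ANKRD1 sits between 1794 and 1970 in EV and between 826 and 1005 in S310F samples, while AMOTL1 sits between 11.6 and 37.3 in EV and between 58.0 and 92.9 in S310F samples.

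Taken over all 9 pairs of an S310F with an EV sample, AMOTL1 was 1.56 to 8.03 times as high in the S310F sample, with a median of 2.66. ANKRD1 was 1.79 to 2.38 times as high in the EV sample, with a median of 2.01. The ANKRD1 pairs thus lay close together, and the AMOTL1 pairs were spread out by EV replicate 2. Without EV replicate 2, the AMOTL1 means were 35.6 ± 2.37 (SD, n = 2) in EV and 80.3 in S310F cells, a ratio of 2.26, and its log2 difference was 1.12. Without S310F replicate 3, the sample that stood apart, the S310F mean of AMOTL1 was 91.5 ± 1.96 (SD, n = 2), a ratio of 3.32, and that of ANKRD1 was 964 ± 57.2 (SD, n = 2), with EV 1.94 times as high. Both genes had their lowest S310F value in that sample. Relative to the mean of the other S310F samples, ANKRD1 was at -0.22 and AMOTL1 at -0.65 log2 units there, while the median listed gene was at 0.23. The part of this sample in the differences is given by these values and was not tested further.

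Within groups, ANKRD1 varied less than most listed genes, most of which had fewer reads. Its SD was 4.75% of the mean in EV and 9.74% in S310F cells, against medians of 13.2% and 27.3% over the 107 listed genes. With about 1879 and 929 reads per sample, counting alone would give SDs of 43.3 and 30.2 units, and the observed SDs were 2.06 and 2.96 times these, above the medians of 1.22 and 2.11 over the listed genes. Of the 10 listed genes nearest to it in level, 6 had a smaller percentage in EV cells (median 4.41%) and 3 in S310F cells (median 19.1%). Level here is the mean over all 6 samples, and these 10 genes spanned 373 to 3765, against 1396 for ANKRD1. AMOTL1 was less reproducible in EV cells, where its SD was 50.7% of the mean. By the mean over all 6 samples, 10 of the 10 listed genes nearest to it had a smaller percentage there (3.31% to 42.5%). Those 10 genes were not matched to it within EV cells, where their means ran from 19.4 (ABCC9) to 80.0 (CYP4X1) and most had more reads. Next to AMOTL1 by EV mean stood AC131392.1 (28.3), with 80.5%, and GEM (26.9), with 17.2%. In S310F cells the SD of AMOTL1 was 24.1% of the mean and 4 of those 10 genes had a smaller one (median 40.8%). Their means there ran from 28.3 (KLHDC7B) to 85.2 (ABCC9), against 80.3 for AMOTL1, and most had fewer reads, so precision at like depth was not compared. The SDs of AMOTL1 were 2.65 and 2.18 times those of counting alone.

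**Figure D2:**
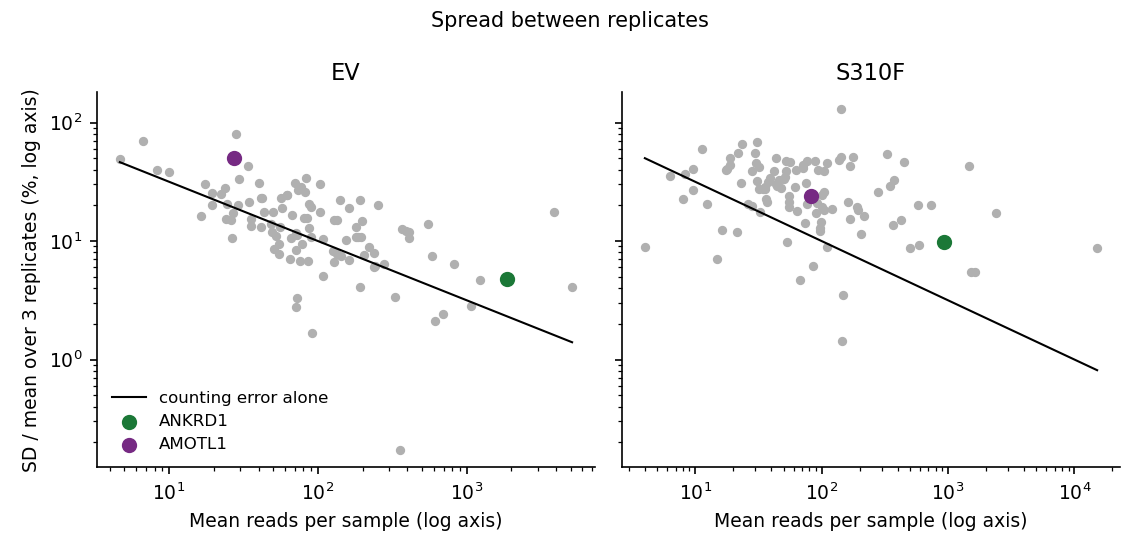
Each point is a listed gene, with its mean reads per sample on the horizontal axis and SD over mean of 3 replicates in percent on the vertical axis (both log axes), for EV (left) and S310F samples (right). The line is counting error alone, and ANKRD1 (4.75% and 9.74%) and AMOTL1 (50.7% and 24.1%) lie above it in both groups.

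Among the 107 listed genes, ANKRD1 ranked 3 by mean value in EV and 6 in S310F cells. Per kilobase of exon, it stood at 947 units in EV cells (rank 2) and 464 in S310F cells (rank 4). AMOTL1, whose exons add up to 10035 bases against 1979 for ANKRD1, stood at 2.75 units per kilobase in EV (rank 99) and 8.004 in S310F cells (rank 76). Per length, ANKRD1 was therefore 244, 864 and 278 times as high as AMOTL1 in the EV samples and 52.0, 54.9 and 72.2 times as high in the S310F samples, in replicate order. The ratio stayed far above 1 in every sample. The 3 S310F ratios lay below the 3 EV ratios, which had to follow, since both genes separated the groups in opposite directions.

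With limits of 0.05 on limma's adjusted p and 1 on the size of the log2 difference, ANKRD1 was called lower, as were 61.7% of the listed genes, and AMOTL1 was called higher, as were 34.6%. The groups did not overlap, with S310F lower, in 61.7% of the listed genes and, with S310F higher, in 36.4%. These shares are high because the table was selected on this contrast, and nothing about either gene is read from them. Among the 66 lower genes ANKRD1 ranked 64 by size of the log2 difference, between METTL7A (-1.04) and MX2 (-1.01), at the edge of the table, where the median was -1.39. Among the 41 higher genes AMOTL1 ranked 12, between SEMA3A (1.73) and TUBAL3 (1.47), with a median of 1.30. In that order, ANKRD1 and AMOTL1 differed from their neighbours by less than 1 standard error of their own.

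The call of ANKRD1 rests on the limit of 1, which it passes narrowly. Its log2 difference was -0.996 without EV replicate 2 and -0.96 without S310F replicate 3, both short of the limit. When each sample was rescaled so that all listed genes but ERBB2 summed to the same total, it was -0.59, with EV 1.497 times as high as S310F cells (1627 ± 27.5 against 1087 ± 143, SD, n = 3 each). That rescaling raised the listed genes by a median of 0.43 on the log2 scale. ANKRD1 then had EV values of 1611 to 1659 and S310F values of 924 to 1191, which did not overlap. The share of listed genes without overlap after the rescaling was not counted, so nothing is read from this. The same rescaling took AMOTL1 to 2.07, a ratio of 3.95. With a pseudocount of 10 AMOTL1 was at 1.32 and ANKRD1 at -1.02, since a pseudocount weighs more on few reads.

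**Figure D3:**
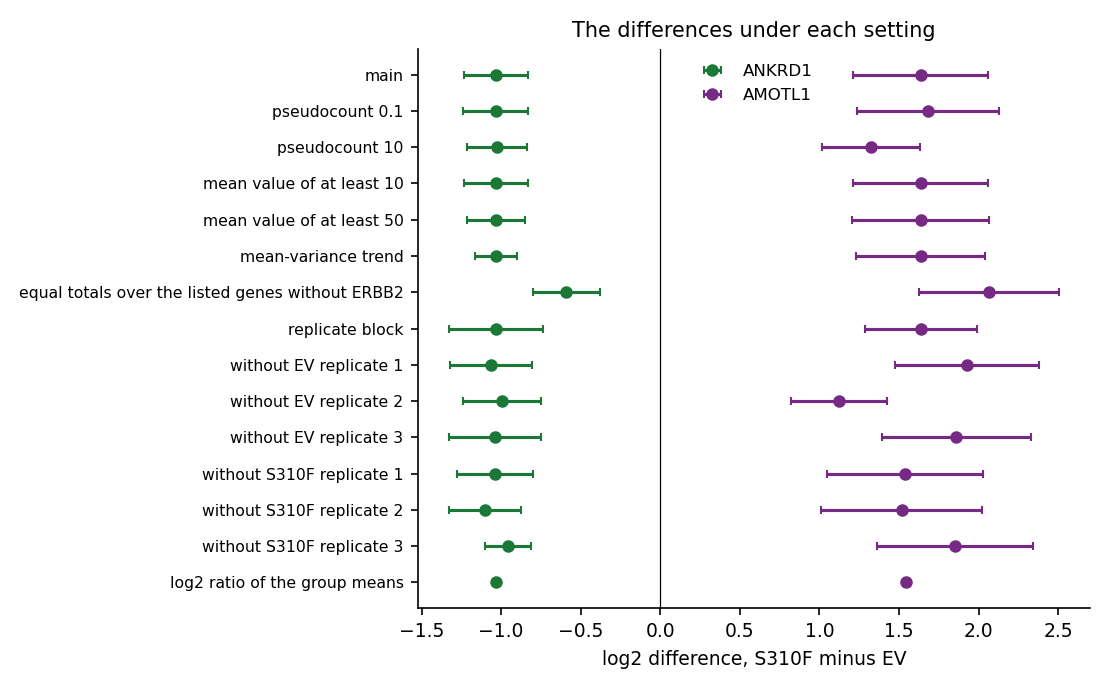
The horizontal axis gives the log2 difference, S310F minus EV, of ANKRD1 and AMOTL1 under each setting on the vertical axis, with limma standard errors as bars (none for the ratio of means). ANKRD1 stays between -1.10 and -0.59 and AMOTL1 between 1.12 and 2.07, on opposite sides of 0.

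The other genes of the pathway were sought in lists written from general knowledge. Of 55 genes of the Hippo pathway, from the MST and LATS kinases to YAP1, WWTR1 and the TEAD factors, 1 was in the table, AMOTL1 itself. Wider definitions of the pathway also take in BMP receptors, and 1 of these, BMPR1B, was in the table with a log2 difference of 1.47 (means 25.96 in EV and 73.5 in S310F cells), named here after its values were seen. Of 77 genes known as YAP/TAZ targets, among them CCN1, CCN2 and AXL, 1 was in the table, ANKRD1 itself. The angiomotin family (3 genes) and the family of cardiac ankyrin repeat proteins (3 genes) were each represented by 1 gene. A gene outside the table may have missed either the limit on fold change or the limit on P, so it may still have differed. The values of such genes were not analysed here. Of 20 sarcomere and muscle genes, 20 genes of the actin cytoskeleton and SRF targets, 11 AP-1 genes and 22 TGF-β genes, 0 were in the table. Those lists are partial. EGR1, an immediate early gene also known as an SRF target, was outside them but in the table, with a log2 difference of 1.84. Its means were 103 in EV and 362 in S310F cells, and it was named after its values were seen. BMPR1B, also a receptor of the TGF-β superfamily, was outside them too.

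Of 39 genes of tight junctions and cell polarity, the structures at which angiomotins sit, 2 were in the table, and both were called lower in S310F cells, CLDN1 not under every setting. CLDN1 encodes claudin 1, a membrane protein that seals tight junctions. Its values were 614, 593 and 531 in the EV and 209, 284 and 355 in the S310F samples, with no overlap. The means were 579 ± 43.1 and 283 ± 73.0 (SD, n = 3 each), a log2 difference of -1.06 with a standard error of 0.249, which was -0.62 after the rescaling and -0.86 without S310F replicate 1. Under both of these CLDN1 was no longer called. CGNL1 encodes paracingulin, a scaffold protein at cell junctions. Its values were 47.3, 51.1 and 58.6 in the EV and 23.9, 9.78 and 19.7 in the S310F samples, again with no overlap. Its means were 52.3 ± 5.72 and 17.8 ± 7.25 (SD, n = 3 each), a log2 difference of -1.58 with a standard error of 0.321. AMOTL1 thus went the opposite way from both of these genes, in a table in which 61.7% of genes were called lower. The junction list is partial. INSC, also known as a gene of cell polarity, was outside it but in the table, and was called higher, like AMOTL1. Its means were 29.1 ± 5.91 in EV and 67.1 ± 3.12 in S310F cells (SD, n = 3 each), with no overlap. INSC was named after its values were seen. The contrast with AMOTL1 therefore holds for CLDN1 and CGNL1 only.

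Genes with the most similar pattern over the 6 samples were named by Pearson's r of log2(value + 1), as a description over samples that fall in 2 groups. For ANKRD1 these were MAN1A1 (0.986), an enzyme that trims mannose from glycoproteins, BDKRB2 (0.979), the bradykinin receptor B2, KRT16 (0.973), a keratin, JPH2 (0.969), a junctophilin known from heart muscle, and GLP2R (0.963). All 5 were called lower in S310F cells, with log2 differences from -1.48 to -1.06. Such values were common, since 22 of the 106 other genes had r above 0.9. For AMOTL1 they were AC241952.1 (0.924), GALNT3 (0.921), which starts O-linked glycosylation, PRDM8 (0.920), LINC00973 (0.917) and PTPN22 (0.912), a tyrosine phosphatase. Their log2 differences ran from 0.97 to 1.77, and 4 of the 5 were called higher, AC241952.1 (0.97) being short of the limit. Of the 106 other genes, 8 had r above 0.9.

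With the group means removed, so that only the scatter between replicates counts, the genes nearest to ANKRD1 were NDUFV2P1 (0.913), CPM (0.878), TFPI2 (0.852), SCG5 (0.842) and KYNU (0.823). They shared 0 genes with the first list for ANKRD1. Of the 5, 3 were called higher in S310F cells, while CPM (0.997) and KYNU (0.86) had log2 differences short of the limit, and the groups of KYNU overlapped. Without S310F replicate 3, the sample that stood apart, r was 0.983 for NDUFV2P1 and 0.670 for CPM, but 0.443, 0.371 and 0.395 for TFPI2, SCG5 and KYNU. For AMOTL1 they were GALNT3 (0.932), AC131392.1 (0.887), PRDM8 (0.812), LINC00973 (0.785) and PTPN22 (0.784), 4 of which were also in its first list. AC131392.1, the exception, was lower in S310F cells, with a log2 difference of -2.07. The deviations of AMOTL1 were largest in EV replicate 2 (-1.03 on the log2 scale, 12 reads). Without that sample, r was -0.07 for AC131392.1, 0.988 for GALNT3 and 0.740 to 0.869 for the other 3. Without S310F replicate 3, r for the 5 genes was between 0.739 and 0.997. These are the highest of 106 values over few samples and were not tested. Between ANKRD1 and AMOTL1, r was -0.82 over the 6 samples and -0.06 once the group means were removed.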

How the data were processed

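RNA of 3 EV and 3 S310F samples of H1975 cells was sequenced by Novogene. Per the labels the build was GRCh38. Aligner, counter, strand setting and differential expression tool are not given in the sources used here. The authors deposited 1 table of 107 genes, kept by limits on fold change and P, with a signal per sample, group means, and their own fold changes and p-values. Only the signal per sample was used. The deposited signal is a read count over a size factor, both made by the authors. Coordinates in the table equalled those of GENCODE release 29 for 107 of 107 genes. Promoter letters came from RefSeq (both genes matched). Gene length is as the authors deposited it.

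Values of all 107 genes and 6 samples, as log2(value + 1), were fitted in R 4.3.3 by limma 3.58.1, with Benjamini-Hochberg adjustment and no covariate. The fit was tested on simulated data. Shared transcript sequence was sought with BLAST 2.17.0, and other steps ran in Python 3.11.15 (pandas 2.3.3, numpy 2.4.6, scipy 1.17.1). Alternatives tried were a ratio of means, a mean-variance trend, a replicate block, leaving out each sample, a rescaling to equal totals, a pseudocount of 0.1 or 10, and a minimum mean value of 10 or 50.

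Both genes and all lists were chosen with earlier results of these data known. Genes named by rule are these 2, ERBB2 and every gene of the lists found in the table. The rule also takes the 5 most similar to ANKRD1 and to AMOTL1 by each measure, and the neighbours of both in the order of log2 differences. BMPR1B, EGR1 and INSC were named after their values were seen. Intervals cover counting error only.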

Additional observations from a re-analysis of the deposited data

How the results depend on the processing

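ANKRD1 stayed lower and AMOTL1 higher in S310F cells under every setting run. With each sample left out in turn, the log2 difference was between -1.10 and -0.96 for ANKRD1, 1.12 and 1.93 for AMOTL1, and 4.13 and 4.26 for ERBB2. The counts of called genes were then 34 to 41 higher and 54 to 64 lower, against 37 and 66 with all samples. The rescaling to equal totals moved ANKRD1 to -0.59, ERBB2 to 4.64 and the count of lower genes to 26 (41 higher), a shift of 0.43 that follows from its construction. The filter on a mean value of 50 left 24 higher genes, since fewer genes were tested. Over the 25 genes named by rule, 320 of 320 values under other settings kept their direction, and 19 moved by 1 SD or more. Every setting reused the samples on which these genes had been selected, so kept directions and calls are no independent support. AMOTL1 kept its call in 13 of 13 other limma fits and ANKRD1 in 10 of 13. Of the 5 genes most similar to ANKRD1, 4 were kept with a pseudocount of 10 and 4 by Spearman's rho, and of those most similar to AMOTL1 5 and 5, with 13 and 15 genes at or above the fifth rho because of ties.

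The labels number replicates 1 to 3 in both groups, and the sources used here do not say whether same-numbered samples were prepared together. Over the 107 genes the deviations of same-numbered samples correlated at 0.06, 0.02 and -0.02. Those of differently numbered samples ran from -0.23 to 0.23. No shared effect of the number was seen in these genes, which cannot settle whether the samples were paired. With the replicate block the log2 differences were the same by construction (-1.03 for ANKRD1, 1.64 for AMOTL1 and 4.19 for ERBB2), with standard errors of 0.293, 0.353 and 0.294, and 37 genes were called higher and 66 lower. The filter at 10 removed no gene. Planned count models on recovered reads were not run, because no listed gene had a single read against which the worth of 1 read could be checked. Depth limits AMOTL1 in EV replicate 2, where it had 12 reads. Leaving out samples in the lists of similar genes was chosen after the data were seen.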
